A study of Mus musculus with 8 samples.

Results

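The unfolded protein response and the integrated stress response were followed through 34 genes, named by symbol as chaperones, folding enzymes, degradation factors, stress sensors and ATF4 targets. All 34 were found among the 48323 gene symbols of the deposited expression table of mouse liver, and each entry carried the status OK. The liver RNA came from wild-type C57BL/6 mice after 30 weeks of exposure, in 4 groups of 2 libraries. LD-FA mice were kept on a light/dark cycle and breathed filtered air. LD-PM2.5 mice were kept on the light/dark cycle and exposed to PM2.5, fine particulate air pollution. LL-FA and LL-PM2.5 mice were kept in constant light (light/light) with filtered air or PM2.5. Sex, age and time of day at collection are not named by the labels. Nor do these say that the libraries of a group are from different animals, and p-values measure only the spread between these libraries, which may be technical.

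The endoplasmic reticulum (ER) folds secreted and membrane proteins, and the liver, which makes most plasma proteins, carries a large folding load. When unfolded protein builds up, the sensors IRE1 (gene Ern1), ATF6 and PERK (gene Eif2ak3) start the unfolded protein response. IRE1 splices Xbp1 mRNA, ATF6 is cleaved into a transcription factor, and both raise chaperones and degradation factors. PERK phosphorylates the translation factor eIF2α, a step shared with the kinases of the integrated stress response, which lowers general translation and favours that of ATF4. ATF4 in turn raises genes of amino acid supply, CHOP (gene Ddit3) and feedback inhibitors.

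Promoter windows of these genes were searched for the elements through which ATF6, XBP1 and ATF4 are known to act, and 6 promoters that hold them in genes described below are shown. RefSeq windows of 300 bases (250 before to 50 after the start, GRCm38.p6) were matched by symbol for 30 of the 34 genes, with 31 windows in all. Hyou1, Manf, Derl1 and Atf6 had no entry. The ER stress response element (ERSE, here CCAAT, then 9 bases of any kind, then CCACG, read on both strands) was present in 9 genes, namely Hspa5, Hsp90b1, Calr, Canx, Dnajc3, Creld2, Pdia6, Syvn1 and Derl3, against 0.119% of 32851 windows of the same length. Its shorter relative ERSE-II (ATTGG, 1 base of any kind, then CCACG, both strands) was present in Herpud1 and Dnajb11, against 0.0365% of all windows. The C/EBP-ATF response element bound by ATF4 (CARE, TGATGNAA, both strands) was present in Asns, Atf3, Chac1, Trib3 and Herpud1, against 3.97%. The letters TGACGTGG, the core of the XBP1-bound element UPRE, were in none of the 31 windows and in 0.676% of all windows. Hsp90b1 held 2 ERSE matches, and Herpud1 held an ERSE-II 52 to 42 bases and a CARE 112 to 105 bases upstream of its start. No 2 of the matches overlapped. A match is a description of letters and not a measured binding site. In the sequences below capitals mark the matches, read 5′ to 3′ along the gene and ending at the base before the start. Hspa5 (chr2:34771940-34772089 on the plus strand), Hsp90b1 (chr10:86705445-86705694 on the minus strand) and Creld2 (chr15:88819496-88819645 on the plus strand) show the ERSE of ER chaperones. Herpud1 (chr8:94386279-94386428 on the plus strand) shows both kinds of element in a single promoter. Atf3 (chr1:191183334-191183483 on the minus strand) and Chac1 (chr2:119350992-119351241 on the plus strand) show the CARE of ATF4 targets.
Hspa5: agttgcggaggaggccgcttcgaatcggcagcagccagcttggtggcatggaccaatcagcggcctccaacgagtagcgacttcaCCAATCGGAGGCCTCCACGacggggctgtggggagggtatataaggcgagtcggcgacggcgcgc
Hsp90b1: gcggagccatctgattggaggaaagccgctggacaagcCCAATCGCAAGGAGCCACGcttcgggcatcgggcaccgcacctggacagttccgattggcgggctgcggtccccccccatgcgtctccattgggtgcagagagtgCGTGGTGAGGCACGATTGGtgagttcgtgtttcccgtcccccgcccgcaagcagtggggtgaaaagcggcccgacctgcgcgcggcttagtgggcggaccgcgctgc
Creld2: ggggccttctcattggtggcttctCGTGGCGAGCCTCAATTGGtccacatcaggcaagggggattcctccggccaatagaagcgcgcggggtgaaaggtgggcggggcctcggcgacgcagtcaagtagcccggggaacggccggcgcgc
Herpud1: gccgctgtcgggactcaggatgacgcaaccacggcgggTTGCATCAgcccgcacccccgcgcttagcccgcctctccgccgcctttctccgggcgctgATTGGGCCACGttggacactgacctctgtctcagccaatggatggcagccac
Atf3: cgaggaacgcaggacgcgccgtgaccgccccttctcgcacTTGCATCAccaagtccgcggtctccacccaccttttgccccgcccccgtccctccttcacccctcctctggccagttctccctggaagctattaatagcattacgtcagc
Chac1: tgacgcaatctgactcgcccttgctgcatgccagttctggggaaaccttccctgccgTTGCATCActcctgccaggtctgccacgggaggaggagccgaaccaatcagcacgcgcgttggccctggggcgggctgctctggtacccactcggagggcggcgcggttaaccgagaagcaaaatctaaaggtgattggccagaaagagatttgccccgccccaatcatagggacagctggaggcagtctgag

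**Figure D1:**
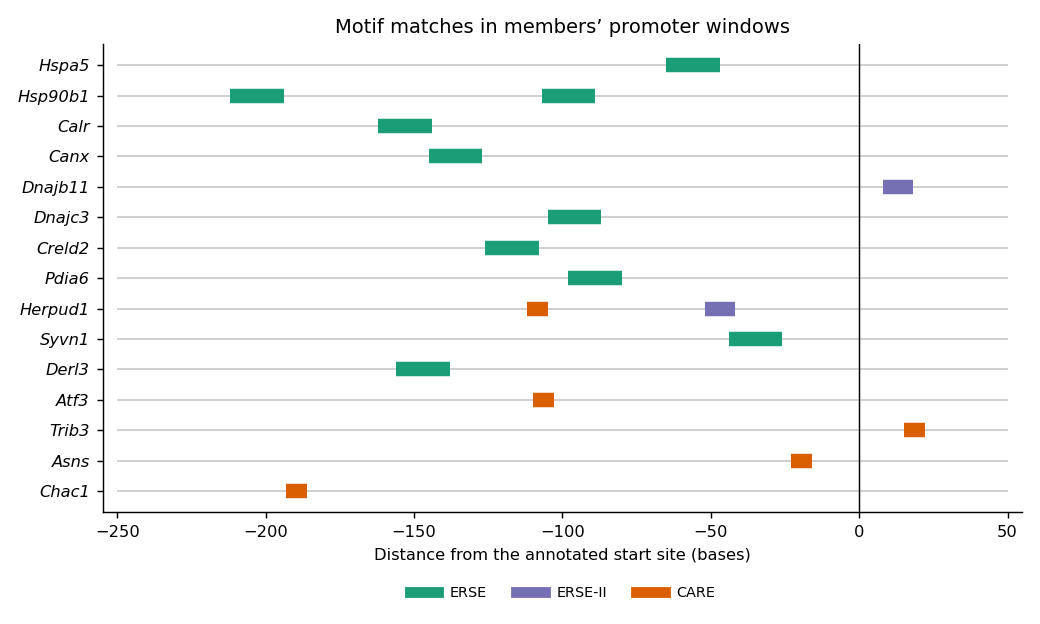
Positions of ERSE, ERSE-II and CARE matches in the 300-base RefSeq windows of the 15 genes that hold any. The horizontal axis is the distance in bases from the annotated start, and each bar is 1 match. Most bars lie upstream of the start, those of Dnajb11 and Trib3 lie after it, and Herpud1 carries 2 kinds.

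The libraries held 22085740 to 31696337 assigned fragments. The 8 hepatocyte markers were abundant in all 8, with sums of 19337 to 23709 FPKM (fragments scaled to transcript length and library depth). LD-FA replicate 1, LD-PM2.5 replicate 1 and LL-PM2.5 replicate 2 also held transcripts of the exocrine pancreas, a tissue rich in ER: the 12 acinar markers summed to 3961, 138 and 387 FPKM there, against 18.1 to 34.8 elsewhere, where Cela1 made up most of the sum and 1 to 8 of the 12 markers were at 0. Skeletal muscle markers summed to 285, 32.8 and 552 FPKM in LD-FA replicates 1 and 2 and LL-FA replicate 1, and to at most 1.35 in the rest. The counts and medians over the 34 genes and the values of the genes described most fully are also given without these 3 libraries, an alternative chosen after seeing the data, in a fit whose only replicated group is LL-FA. In bulk liver, fewer cells of a type and less RNA per cell cannot be told apart.

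Liver expressed the folding machinery at high and the ATF4 targets at low levels. By median over the 8 libraries, P4hb (643 FPKM), which forms disulfide bonds, Hspa5 (408 FPKM), the main ER chaperone BiP, and Calr (365 FPKM), the calcium-binding lectin chaperone calreticulin, were the highest of the 34. Chac1 (0.699 FPKM), a glutathione-degrading enzyme, and Atf3 (0.850 FPKM), a stress-induced repressor, were the lowest. All 34 passed the filter of at least 1 FPKM in at least 2 libraries, 31 of them with 1 FPKM or more in all 8 libraries and Derl3 in 7. Atf3 passed through 3 libraries, all of light/dark mice, and Chac1 through both LD-PM2.5 libraries and LL-FA replicate 2, so that for these 2 genes the filter used the same values as the comparison. For 23 of the 34, the largest difference between 2 replicates was larger than the range of the 4 group means on the log2(FPKM + 1) scale, against 77.3% of the 11316 genes tested.

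**Figure D2:**
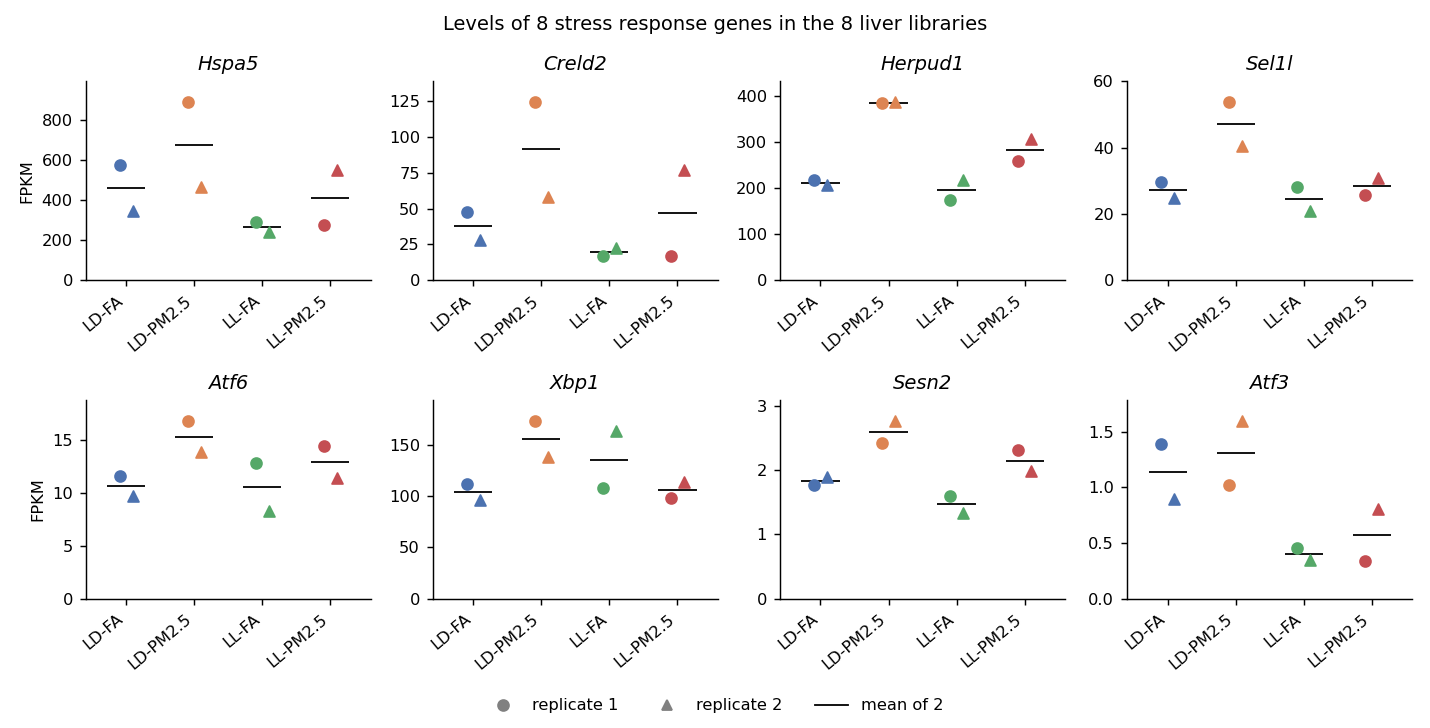
FPKM of Hspa5, Creld2, Herpud1, Sel1l, Atf6, Xbp1, Sesn2 and Atf3, 8 of the 34 genes, in each of the 8 libraries, on linear axes. Points are coloured by group, marker shapes give the replicate and lines the group mean. Herpud1 and Sesn2 lie higher in every PM2.5 library than in any filtered-air library, while the replicates of Hspa5 and Creld2 lie far apart in both PM2.5 groups.

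PM2.5 was compared with filtered air within each light regime and averaged over both. In the light/dark cycle 27 of the 34 genes had a positive fitted fold change, with a median log2 fold change of 0.45, and 48.4% of all genes tested were positive. In constant light 26 were positive with a median of 0.25, against 50.7% of all genes, and averaged over light 28 were positive with a median of 0.36, against 49.5%. None passed an adjusted p of 0.05 in edgeR's quasi-likelihood test, in which 0% of all genes were called in each light regime and 0.0177% in the average. At an unadjusted p under 0.05 there were 8 in the light/dark cycle (7 higher, 1 lower; 11% of all genes), 6 in constant light (all higher; 4.83%) and 9 in the average (all higher; 10%). DESeq2 called Herpud1 in the light/dark cycle and in the average, where it called 1.33% and 1.42% of all genes, and none of the 34 in constant light (0.513% of all genes). limma on log2(FPKM + 1) called none of the 34 in any comparison, and at most 2 of the 11316 genes (0.0177%). Both PM2.5 libraries lay above both filtered-air libraries for 13 genes in the light/dark cycle, against 24.6% of all genes, and for 7 in constant light, against 9.65%. They lay below them for 1 gene in each regime, against 18.7% and 11.6%. The 13 included Chac1, which passed the filter only through both LD-PM2.5 libraries and LL-FA replicate 2. Chac1 therefore gives the higher counts of the light/dark cycle among filtered genes no support of its own. Over both regimes together, all 4 PM2.5 libraries lay above all 4 filtered-air libraries for 2 of the 34, Herpud1 and Sesn2, and below them for 0, while 1.59% of all genes were above, 1.81% below and 3.4% either. With no filter on low FPKM, which brought 23030 genes into the edgeR fit, 6 of the 34 were called in the light/dark cycle (2.81% of all genes), 5 in constant light (2.07%) and 10 in the average (3.02%), all higher.

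The PM2.5 direction rested in part on single libraries. Without LL-PM2.5 replicate 2, the genes with a positive value in constant light went from 26 to 12 and the median to -0.12. Without LD-PM2.5 replicate 1, those in the light/dark cycle went from 27 to 20 and the median to 0.12. With the 3 libraries holding pancreas transcripts left out, 26 were positive in the light/dark cycle, 12 in constant light and 21 in the average, where the median was 0.05, while 49.5%, 48.3% and 48.4% of all genes were positive.

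Constant light was compared with the light/dark cycle in the same way. Under filtered air 4 of the 34 genes had a positive value and 30 a negative one, with a median log2 fold change of -0.25, against 50.1% of all genes positive. Under PM2.5 the median was -0.40 with 5 positive (51.1% of all genes), and averaged over air it was -0.33 with 4 positive (51.3%). edgeR called none of the 34, and 0% of all genes, in each of these 3 comparisons. At an unadjusted p under 0.05 there was 1 gene, Atf3, under filtered air, 6 under PM2.5 and 6 in the average, all lower in constant light. The test gave 2.74%, 9.23% and 5.66% of all genes. DESeq2 called none under filtered air (0.38% of all genes), Derl3 under PM2.5 (1.23%) and Atf3 in the average (0.813%), both lower, where Atf3 had entered the test only through light/dark libraries. Both constant-light libraries lay below both light/dark libraries for 14 genes under filtered air, against 11.3% of all genes, and for 12 under PM2.5, against 18.3%. They lay above for 1 and 2 genes, against 10.7% and 12.3%. All 4 constant-light libraries lay below all 4 light/dark libraries for 2 of the 34, P4hb and Atf3, and above them for 0. Of all genes 1.56% were below, 0.68% above and 2.24% either. Because Atf3 entered only through light/dark libraries, it gives none of these lower counts support of its own. The 12 under PM2.5 included Chac1, which entered only through both LD-PM2.5 libraries and LL-FA replicate 2. Chac1 therefore gives the lower counts under PM2.5 no support of its own. With no filter on low FPKM, edgeR called 3 of the 34 under filtered air (0.873% of all genes), 4 under PM2.5 (1.55%) and 6 in the average (1.26%), all lower. Without the 3 libraries holding pancreas transcripts, the average kept a median of -0.30 with 5 positive, against 52.9% of all genes. Leaving out 1 library at a time gave medians of -0.51 to -0.21 in that average. Under PM2.5 single libraries weighed more: the median was -0.10 with 13 positive without LD-PM2.5 replicate 1, -0.11 with 11 positive without LL-PM2.5 replicate 1, and -0.71 with 3 positive without LL-PM2.5 replicate 2.

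**Figure D3:**
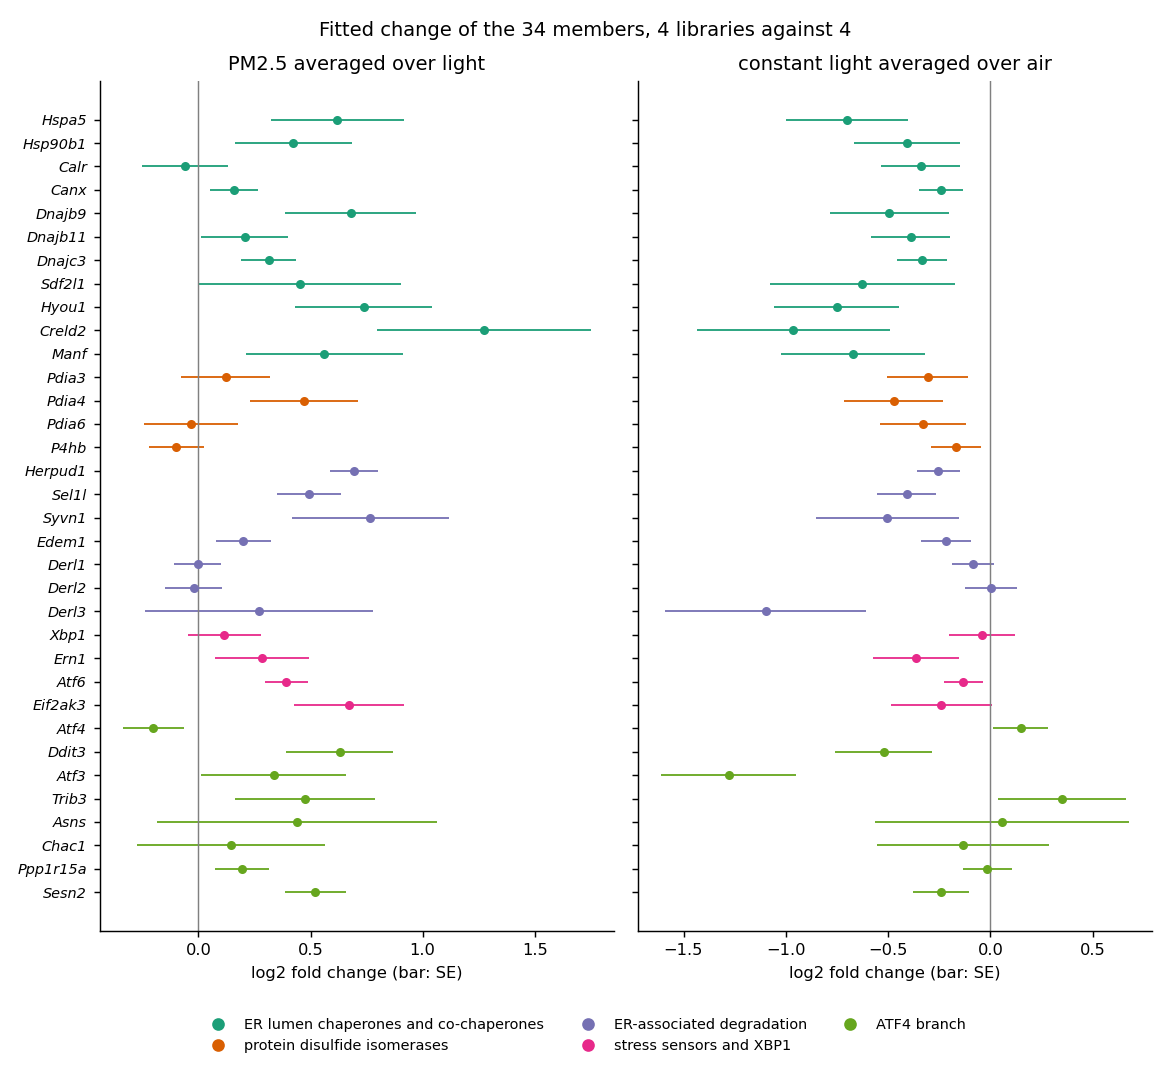
Fitted log2 fold changes of the 34 genes for PM2.5 averaged over light and for constant light averaged over air, with bars of 1 standard error, in order of role. Most points lie right of 0 for PM2.5 and left of 0 for constant light, and the bars of Herpud1, Sesn2 and Atf6 are among the short ones on the PM2.5 side.

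The PM2.5 values of the light/dark cycle and of constant light come from groups that share no library. In these, 25 of the 34 genes (73.5%) had the same sign, 22 of them positive, against 54.3% of all genes. Without LL-PM2.5 replicate 2 this count was 15 (44.1%, against 63.3% of all genes), and without the 3 libraries holding pancreas transcripts it was 16 (47.1%, against 56.1%). For constant light, the filtered-air and PM2.5 values also share no library, and 25 genes (73.5%) had the same sign, all 25 negative, against 46.9% of all genes. The count was 19 to 28 with any 1 library left out, lowest without LD-PM2.5 replicate 1 (44.1% of all genes), and 27 without the 3 libraries (51.2%).

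**Figure D4:**
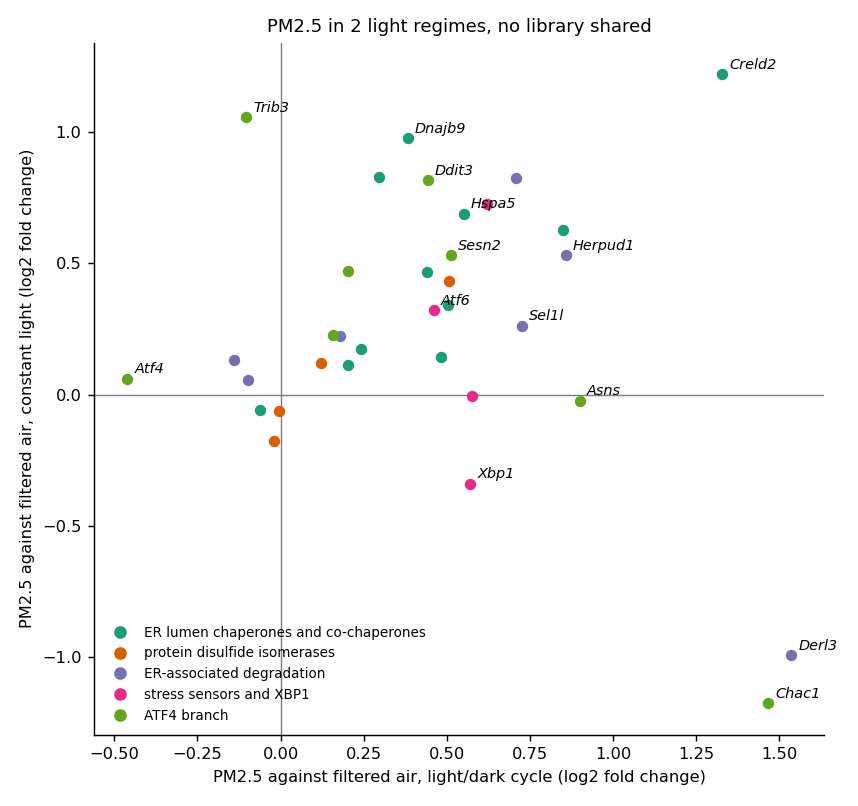
Log2 fold change of each of the 34 genes for PM2.5 in constant light (vertical) against PM2.5 in the light/dark cycle (horizontal), coloured by role. Herpud1 lies in the upper right quadrant away from 0 on both axes, whereas Derl3 and Chac1 lie to the lower right.

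The 11 ER lumen chaperones and co-chaperones, which bind unfolded chains or serve the chaperones that do, were all highest in LD-PM2.5 replicate 1, as were 18.2% of all genes. Their median deviation from each gene's mean over libraries, on the log2(FPKM + 1) scale, was 0.30 and -0.26 for LD-FA, 1.04 and 0.05 for LD-PM2.5, -0.30 and -0.36 for LL-FA, and -0.45 and 0.35 for LL-PM2.5. For 6 of the 11 the 3 highest libraries were those holding pancreas transcripts, against 2.71% of all genes. The acinar markers summed to 138 FPKM in LD-PM2.5 replicate 1, 387 in LL-PM2.5 replicate 2 and 3961 in LD-FA replicate 1. The part of these transcripts in the chaperone levels was not tested.

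Hspa5 was 575 and 349 FPKM for LD-FA, 889.9 and 468 for LD-PM2.5, 291 and 244 for LL-FA and 276 and 552 for LL-PM2.5. Both LL-FA libraries were below both LD-FA libraries, and the PM2.5 libraries overlapped those with filtered air in each regime. Its log2 fold change was 0.62 ± 0.30 (SE) for PM2.5 averaged over light and -0.70 ± 0.30 for constant light averaged over air, with edgeR adjusted p of 0.521 and 0.86. Omitting the 3 libraries gave 0.16 ± 0.15 and -0.73 ± 0.15. Creld2 was 47.3 and 28.1 FPKM for LD-FA, 124 and 58.4 for LD-PM2.5, 16.8 and 22.6 for LL-FA and 16.7 and 76.9 for LL-PM2.5. Creld2, an ER protein that can also be secreted, was highest in LD-PM2.5 replicate 1 and LL-PM2.5 replicate 2. For PM2.5 averaged over light it had a log2 fold change of 1.27 ± 0.48 (SE; edgeR adjusted p = 0.453), and 0.44 ± 0.17 without the 3 libraries. Under PM2.5, constant light gave Creld2 -1.02 ± 0.67 with an edgeR adjusted p of 0.635 over all libraries, and -1.62 ± 0.26 with an adjusted p of 0.0427 without the 3, where 0.583% of all genes were called and no other of the 34 was. That fit left 1 library in every group but LL-FA, so that its spread came from the 2 LL-FA libraries and was assumed for the others. Hspa5 and Creld2 are given in full because their promoters are shown.

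Dnajb9 was 76.6 and 34.2 FPKM for LD-FA, 109.5 and 47.4 for LD-PM2.5, 48.3 and 21.0 for LL-FA and 52.5 and 65.6 for LL-PM2.5. Dnajb9, which hands misfolded proteins to degradation and restrains IRE1, was higher in both LL-PM2.5 libraries than in both LL-FA libraries, with a log2 fold change of 0.98 ± 0.42 (SE; edgeR adjusted p = 0.989), and 0.45 without LL-PM2.5 replicate 2. In filtered air, constant light gave -0.79 ± 0.41, with overlapping libraries, and -0.34 without LD-FA replicate 1. Dnajc3 was 64.1 and 49.6 FPKM for LD-FA, 100.4 and 68.4 for LD-PM2.5, 57.5 and 47.0 for LL-FA and 55.8 and 56.6 for LL-PM2.5. Dnajc3, the co-chaperone p58IPK that inhibits PERK, was higher in both LD-PM2.5 libraries than in the other 6. Its log2 fold change was 0.48 ± 0.17 (SE) under PM2.5 against filtered air in light/dark and -0.50 ± 0.17 for constant light under PM2.5, with edgeR adjusted p of 0.438 and 0.495, and 0.37 ± 0.21 and -0.52 ± 0.21 without the 3 libraries. Calr was 497 and 396 FPKM for LD-FA, 546 and 309.6 for LD-PM2.5, 331 and 365 for LL-FA and 284 and 366 for LL-PM2.5. Calr differed more between the LD-PM2.5 replicates than between group means, with -0.06 ± 0.19 for PM2.5 averaged over light and 0.928 as edgeR adjusted p. Hsp90b1 (GRP94, 187 to 489.7 FPKM), Canx (calnexin, 68.3 to 118), Dnajb11 (ERdj3, 43.4 to 92.0), Sdf2l1 (21.3 to 105), the nucleotide exchange factor Hyou1 (28.5 to 119.98) and the secreted stress protein Manf (54.3 to 190.4) shared LD-PM2.5 replicate 1 as their highest library. In each of the 3 constant-light comparisons all 11 chaperones had negative values, with a median of -0.49 in the average over air. They were also negative without the 3 libraries holding pancreas transcripts, where that median was -0.38. Under PM2.5 the sign rested in part on single libraries. With some 1 library left out, Hsp90b1, Calr, Dnajb9, Sdf2l1 and Manf each turned positive there, Dnajb9 the farthest, to 0.26.

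**Figure D5:**
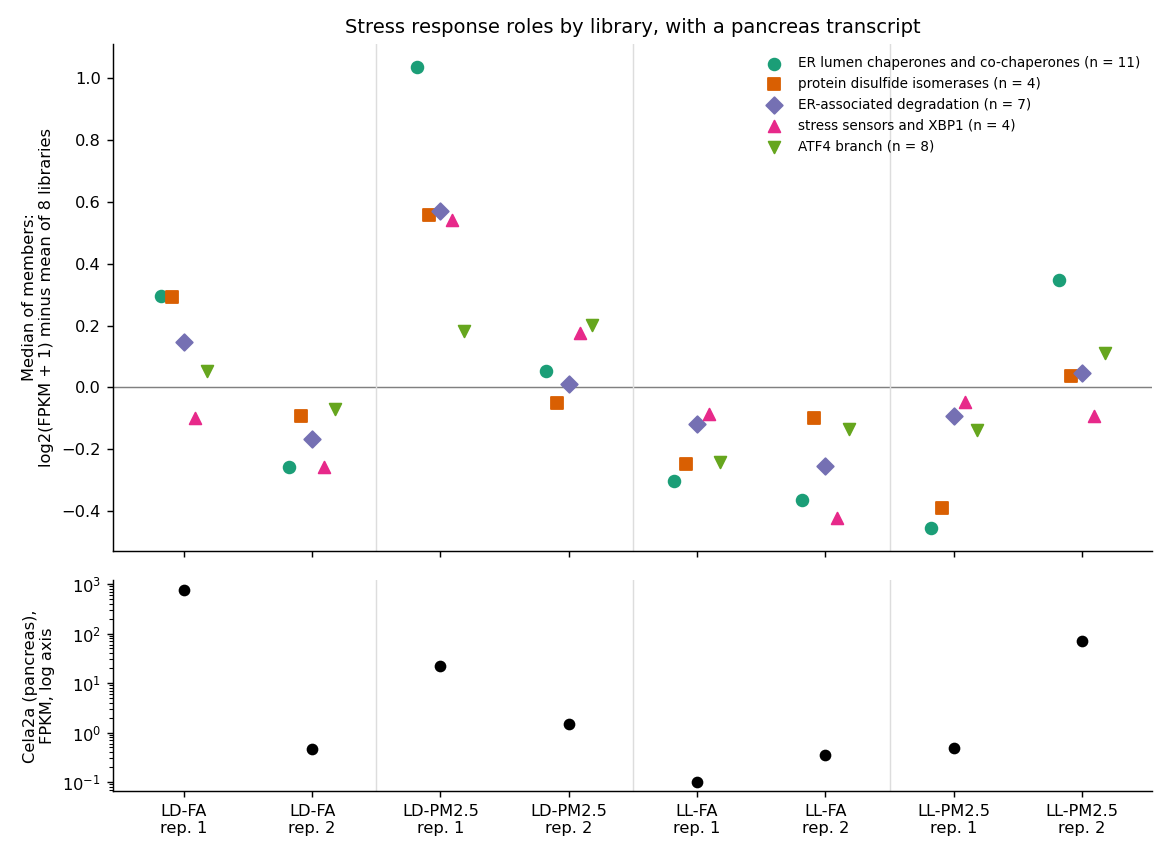
Median log2(FPKM + 1) deviation of the genes of each role in each of the 8 libraries, with Cela2a FPKM per library on a log axis below. LD-PM2.5 replicate 1 is highest for every role except the ATF4 branch, and the chaperone points are also above 0 in LD-FA replicate 1 and LL-PM2.5 replicate 2, the other libraries with Cela2a above 10 FPKM, and slightly so (0.05) in LD-PM2.5 replicate 2, with Cela2a at 1.495 FPKM.

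The 4 protein disulfide isomerases, which form and rearrange disulfide bonds, had a median log2 fold change of 0.04 for PM2.5 averaged over light, and -0.17 without the 3 libraries holding pancreas transcripts. P4hb was 715 and 662 FPKM for LD-FA, 704 and 646 for LD-PM2.5, 619.8 and 639 for LL-FA and 508 and 623 for LL-PM2.5. Its 4 constant-light libraries were all below the 4 light/dark libraries. For P4hb the log2 fold change was -0.17 ± 0.12 (SE) for constant light averaged over air, with an edgeR adjusted p of 0.919, and -0.10 ± 0.12 for PM2.5 averaged over light. Pdia3 (168 to 322 FPKM), Pdia4 (60.5 to 164) and Pdia6 (93.7 to 186) were each highest in LD-PM2.5 replicate 1. Values for constant light were negative for all 4 in each comparison, with a median of -0.32 in the average over air. Without those libraries that median was -0.28, and P4hb had 0.0016 in filtered air. Pdia3 under PM2.5 reached 0.014 with some 1 library left out.

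Among the 7 genes of ER-associated degradation, which returns misfolded proteins to the cytosol for destruction, Herpud1 stood higher in every PM2.5 library than in any filtered-air library. Herpud1 was 218 and 207 FPKM for LD-FA, 385 and 387 for LD-PM2.5, 175 and 217 for LL-FA and 259 and 307 for LL-PM2.5. The lowest PM2.5 library, LL-PM2.5 replicate 1, was above the highest filtered-air library, LD-FA replicate 1. Herpud1 (ENSMUSG00000031770, GRCm38 chr8:94386438-94395377) encodes a membrane protein of the HRD1 ubiquitin ligase complex. Its log2 fold change was 0.86 ± 0.15 (SE) in the light/dark cycle, 0.53 ± 0.15 in constant light and 0.69 ± 0.11 averaged over light. The edgeR adjusted p was 0.382, 0.989 and 0.296, and the unadjusted p of the average was 0.000235. DESeq2 gave 0.70 ± 0.12 for the average with an adjusted p of 3.64e-06, and 0.86 ± 0.17 in the light/dark cycle with 0.000134. Averaged over light the edgeR value was 0.63 to 0.76 with any 1 library left out and 0.65 ± 0.15 without the 3 libraries holding pancreas transcripts. Dbp, a clock output gene whose level follows the time of day, was 2.05 to 9.08 FPKM in the filtered-air libraries and 9.12 to 54.0 in the PM2.5 libraries, so that it too did not overlap. Dbp was also higher in both constant-light than in both light/dark libraries, with log2 fold changes of 1.41 in filtered air and 2.03 under PM2.5. The part of sampling time in the PM2.5 and constant-light values of Herpud1 and the other genes was not tested.

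Sel1l was 29.7 and 24.9 FPKM for LD-FA, 53.6 and 40.5 for LD-PM2.5, 28.04 and 20.9 for LL-FA and 25.7 and 30.9 for LL-PM2.5. Sel1l, the adaptor of the HRD1 ligase, was highest in the LD-PM2.5 libraries, above all 6 others. The log2 fold change was 0.73 ± 0.20 (SE) under PM2.5 against filtered air in light/dark, 0.26 ± 0.20 in constant light and -0.64 ± 0.20 for constant light under PM2.5. The edgeR adjusted p was 0.418, 1 and 0.487. In the fit without the 3 libraries holding pancreas transcripts, Sel1l had 0.64, 0.01 and -0.70. Derl3 was 2.37 and 2.15 FPKM for LD-FA, 10.6 and 2.56 for LD-PM2.5, 2.88 and 1.98 for LL-FA and 0.617 and 1.94 for LL-PM2.5. Derl3, the stress-inducible derlin of the retrotranslocation channel, was set apart by LD-PM2.5 replicate 1. For constant light under PM2.5 it had a log2 fold change of -2.36 ± 0.71 (SE) with an edgeR adjusted p of 0.486, and DESeq2 called it with -2.41 ± 0.61 and 0.0099. Without LD-PM2.5 replicate 1 the edgeR value was -0.97, without LL-PM2.5 replicate 2 it was -3.27, and without all 3 libraries holding pancreas transcripts -1.87 ± 0.51. The B and plasma cell markers, from cells that also express Derl3, summed to 33.7 to 90.8 FPKM in the light/dark and 21.9 to 37.0 in the constant-light libraries. The sum was 90.8 in LD-FA replicate 1, with Derl3 at 2.37 FPKM, and 46.1 in LD-PM2.5 replicate 1, with Derl3 at 10.6. The part of these cells was not tested.

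Derl1 was 52.6 and 41.4 FPKM for LD-FA, 49.3 and 40.5 for LD-PM2.5, 41.7 and 39.2 for LL-FA and 44.3 and 45.7 for LL-PM2.5. Derl2 was 61.9 and 48.9 FPKM for LD-FA, 59.7 and 51.4 for LD-PM2.5, 47.5 and 56.4 for LL-FA and 49.9 and 52.3 for LL-PM2.5. Derl1 and Derl2, the constitutive derlins, spanned the narrowest ranges of the degradation genes. Both LL-PM2.5 libraries of Derl1 were above both LL-FA libraries, with a log2 fold change of 0.13 ± 0.15 (SE), and its other PM2.5 comparison and both of Derl2 overlapped. Derl1 had -0.14 ± 0.15 (SE) and Derl2 -0.10 ± 0.18 as log2 fold change for light/dark PM2.5, with edgeR adjusted p of 0.704 and 0.83. The ubiquitin ligase HRD1 itself (Syvn1, 18.3 to 55.5 FPKM) had the 3 libraries with pancreas transcripts as its highest. Its log2 fold change for PM2.5 in constant light was 0.82 with them and -0.02 without them. Of the 3, that comparison holds only LL-PM2.5 replicate 2. In the light/dark cycle the Syvn1 value was 0.76 without them and 0.21 to 1.26 with any 1 library left out. Edem1, a lectin that selects misfolded glycoproteins, ranged from 28.3 to 54.4 FPKM with LD-PM2.5 replicate 1 highest.

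All 4 genes of the stress sensors and XBP1 were higher in both LD-PM2.5 libraries than in both LD-FA libraries, as were 24.6% of all genes, and all 4 were highest in LD-PM2.5 replicate 1, as were 18.2%. Atf6 was 11.6 and 9.66 FPKM for LD-FA, 16.8 and 13.8 for LD-PM2.5, 12.8 and 8.31 for LL-FA and 14.4 and 11.4 for LL-PM2.5. Atf6 had a log2 fold change of 0.46 ± 0.14 (SE) for PM2.5 in light/dark mice, 0.32 ± 0.14 in constant light and 0.39 ± 0.10 averaged over light. The edgeR adjusted p was 0.422, 0.989 and 0.396, and the average was 0.39 without the 3 libraries holding pancreas transcripts. In constant light the LL-FA and LL-PM2.5 libraries overlapped. Xbp1 was 111 and 95.7 FPKM for LD-FA, 173 and 138 for LD-PM2.5, 107 and 163 for LL-FA and 98.2 and 114 for LL-PM2.5. Xbp1, whose level here counts spliced and unspliced mRNA together, was high in both LD-PM2.5 libraries and in LL-FA replicate 2. Its log2 fold change for PM2.5 was 0.57 ± 0.23 (SE) in the light/dark cycle and -0.34 ± 0.23 in constant light, and the interaction was -0.91 ± 0.32 with an edgeR adjusted p of 0.843. Without LL-FA replicate 2 the constant-light value of Xbp1 was 0.0018 and the interaction -0.57. Ern1 ranged from 5.35 to 13.3 FPKM and Eif2ak3 from 3.03 to 7.58.

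The 8 genes of the ATF4 branch did not share a highest library, and none had the libraries holding pancreas transcripts as its 3 highest. Atf4 was 72.2 and 55.3 FPKM for LD-FA, 52.1 and 40.3 for LD-PM2.5, 59.8 and 55.9 for LL-FA and 54.0 and 65.5 for LL-PM2.5. Both LD-PM2.5 libraries of Atf4 were below both LD-FA libraries, with a log2 fold change of -0.46 ± 0.19 (SE; edgeR adjusted p = 0.452), the lowest of the 34 in that comparison. Because ATF4 is controlled mainly through translation, its mRNA level does not measure its protein. Sesn2 was 1.77 and 1.90 FPKM for LD-FA, 2.43 and 2.76 for LD-PM2.5, 1.60 and 1.34 for LL-FA and 2.30 and 1.99 for LL-PM2.5. Sesn2, a leucine sensor that restrains mTORC1, had all 4 PM2.5 libraries above all 4 filtered-air libraries. Its log2 fold change was 0.52 ± 0.14 (SE) for PM2.5 averaged over light, 0.51 ± 0.19 in the light/dark cycle and 0.53 ± 0.19 in constant light. For Sesn2 the edgeR adjusted p of the average was 0.396, and with any 1 library left out the value was 0.42 to 0.64.

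Ddit3 was 6.01 and 6.29 FPKM for LD-FA, 6.62 and 9.81 for LD-PM2.5, 4.28 and 2.84 for LL-FA and 4.86 and 8.197 for LL-PM2.5. Ddit3 was higher in both PM2.5 libraries than in both filtered-air libraries of its regime, with 0.44 ± 0.33 (SE) in the light/dark cycle and 0.82 ± 0.34 in constant light as log2 fold change. The edgeR adjusted p was 0.607 and 0.989, and leaving out replicate 2 of the PM2.5 group lowered the values to 0.20 and 0.44. In filtered air both LL-FA libraries of Ddit3 were below both LD-FA libraries, with -0.71 ± 0.34, and -0.34 without LL-FA replicate 2. Atf3 was 1.39 and 0.896 FPKM for LD-FA, 1.02 and 1.60 for LD-PM2.5, 0.454 and 0.348 for LL-FA and 0.337 and 0.805 for LL-PM2.5. All 4 constant-light libraries of Atf3 (ENSMUSG00000026628, GRCm38 chr1:191170296-191218039) were below all 4 light/dark libraries. Log2 fold changes were -1.28 ± 0.33 (SE) for constant light averaged over air, -1.41 ± 0.47 in filtered air and -1.15 ± 0.46 under PM2.5, with edgeR adjusted p of 0.583, 1 and 0.531. DESeq2 gave -1.33 ± 0.37 for the average with an adjusted p of 0.0458. Since Atf3 passed the filter only through the group of libraries where it was high, neither that call nor the lack of overlap gives support of its own. The edgeR value was -1.64 to -1.03 with any 1 library left out and -1.63 ± 0.33 without the 3 libraries holding pancreas transcripts.

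Trib3 was 2.68 and 1.98 FPKM for LD-FA, 3.09 and 1.07 for LD-PM2.5, 1.83 and 1.98 for LL-FA and 3.90 and 4.08 for LL-PM2.5. Trib3, a pseudokinase that restrains ATF4 and CHOP, was highest in both LL-PM2.5 libraries, with a log2 fold change of 1.06 ± 0.44 (SE) for PM2.5 in constant light and 0.93 ± 0.44 for constant light under PM2.5. The edgeR adjusted p was 0.989 and 0.562, and the latter value was 1.94 with replicate 1 of LD-PM2.5 left out and 0.36 with its replicate 2 left out. Chac1 was 0.605 and 0.690 FPKM for LD-FA, 1.83 and 1.83 for LD-PM2.5, 0.492 and 2.59 for LL-FA and 0.550 and 0.707 for LL-PM2.5. Chac1 was at least 1.83 FPKM in 3 libraries, both of LD-PM2.5 and LL-FA replicate 2, and below 1 in the other 5. Asns was 4.78 and 2.85 FPKM for LD-FA, 11.7 and 3.27 for LD-PM2.5, 6.23 and 4.85 for LL-FA and 1.117 and 9.07 for LL-PM2.5. Asns, which makes asparagine, was highest in LD-PM2.5 replicate 1 and lowest in LL-PM2.5 replicate 1, and its LL-PM2.5 replicates were the farthest apart of any of the 34. For constant light in filtered air it had 0.52 ± 0.89 (SE) as log2 fold change, with an edgeR adjusted p of 1. Ppp1r15a (GADD34), which recruits the phosphatase that reverses eIF2α phosphorylation, ranged only from 2.72 to 3.47 FPKM.

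Whether the PM2.5 value differed between the light regimes was tested as an interaction. edgeR called none of the 34, and 0% of all genes, while 3 had an unadjusted p under 0.05 (4.88% of all genes), and DESeq2 called none (0.292%). These 3 were Chac1, Xbp1 and Derl3, with log2 interactions of -2.64 ± 0.83, -0.91 ± 0.32 and -2.53 ± 0.98 (SE) and an edgeR adjusted p of 0.843 each. Chac1 passed the filter only through both LD-PM2.5 libraries and LL-FA replicate 2, from the groups whose high values make an interaction negative. Its place among the 3 therefore gives no support of its own. With no filter on low FPKM edgeR called Chac1 and Derl3 (1.04% of all genes). Chac1 was 1.47 ± 0.59 for PM2.5 in light/dark mice and -1.17 ± 0.59 in constant light. Without LL-FA replicate 2 the latter was 0.22. On the positive side Trib3 had 1.16 ± 0.62, Atf4 0.52 ± 0.27 and Derl1 0.27 ± 0.21, each with an edgeR adjusted p of 0.843. Of the 34 values 17 were positive, against 50.3% of all genes, and the median was -0.03.

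Set beside their promoter letters, all 11 genes with ERSE or ERSE-II had negative values for constant light averaged over air, with a median log2 fold change of -0.39 and a range of -1.10 to -0.24. The 15 matched genes with none of the elements had 13 negative values and a median of -0.24. For PM2.5 averaged over light the 11 genes had 9 positive values and a median of 0.31, and the 15 had 12 and 0.28. Without the 3 libraries holding pancreas transcripts the PM2.5 medians were 0.04 and 0.05, and those for constant light -0.31 and -0.28. The 5 genes with CARE had 5 positive values, 0.15 to 0.69, for PM2.5 averaged over light, but Chac1, Trib3, Asns and Atf3 each turned negative with some library left out, and Herpud1 alone of the 5 did not. For constant light averaged over air these 5 had values from -1.28 (Atf3) to 0.35 (Trib3). Herpud1 counts in both classes, and no test was made of the difference between them.

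A further 70 genes of ER folding, export and the integrated stress response that are not among the 34 gave 61 tested genes. edgeR and limma called none in any of the 7 comparisons, each with 0% to 0.0177% of all genes called. DESeq2 called 3 in constant light under PM2.5 (1.23% of all genes) and 1 in constant light averaged over air (0.813%), all lower. At an unadjusted p under 0.05 edgeR gave 4 in the light/dark PM2.5 comparison (11% of all genes), 1 in constant light in filtered air (2.74%), 1 in PM2.5 in constant light (4.83%), 4 in constant light under PM2.5 (9.23%), 5 and 4 in the averages over light and air (10% and 5.66%), and 0 in the interaction (4.88%). For PM2.5 averaged over light 31 of the 61 values were positive with a median of 0.00, and for constant light averaged over air 45 were negative with a median of -0.07. The 34 other ER folding and export genes had 28 negative values in the latter, and the 27 tested genes of the integrated stress response had 17.

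Ero1lb was 21.8 and 12.3 FPKM for LD-FA, 32.2 and 19.6 for LD-PM2.5, 14.3 and 9.79 for LL-FA and 12.6 and 11.5 for LL-PM2.5. Ero1lb, an oxidase that recharges disulfide isomerases and is abundant in pancreas, had a log2 fold change of -0.76 ± 0.16 (SE) for constant light averaged over air (edgeR adjusted p = 0.394). DESeq2 called it there with -0.76 ± 0.16 and an adjusted p of 0.00102, and the edgeR value was -0.58 ± 0.14 without the 3 libraries holding pancreas transcripts. Uggt1 was 10.6 and 9.17 FPKM for LD-FA, 14.1 and 11.1 for LD-PM2.5, 9.48 and 7.25 for LL-FA and 7.74 and 7.89 for LL-PM2.5. Uggt1, the glucosyltransferase that tests the folding of glycoproteins, had -0.44 ± 0.11 (edgeR adjusted p = 0.545), and both its LL-PM2.5 libraries were below both LD-PM2.5 libraries. DESeq2 called Ero1lb, Uggt1 and Cebpb, an ATF4 partner, under PM2.5, with log2 fold changes of -0.999, -0.63 and -1.06. Cebpb was 74.9 and 226 FPKM in the LD-PM2.5 libraries, and 51.6 and 78.1 in LL-PM2.5, and without LD-PM2.5 replicate 2 its edgeR value was -0.49.

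On the PM2.5 side the smallest p-values among the 61 belonged to Edem3, a mannosidase of glycoprotein degradation, with 0.43 ± 0.12 (SE), and Ero1l, an ER oxidase, with 0.38 ± 0.12, both averaged over light, and edgeR adjusted p of 0.407 and 0.43. Cebpg, a partner of ATF4, had 0.41 ± 0.12 in the light/dark cycle, where its LD-PM2.5 libraries were above both LD-FA libraries. In the other direction Sec61b, a subunit of the translocation channel, and Shmt2, a mitochondrial enzyme of serine use, had -0.28 ± 0.14 and -0.18 ± 0.08 averaged over light. Gdf15, a stress hormone, was 2.74 and 16.0 FPKM for LL-PM2.5 and 1.99 to 6.598 elsewhere, and Nupr1, a stress-induced chromatin factor, was 6.99 FPKM in LD-FA replicate 1 and 0.541 to 2.27 elsewhere. Both highest values lay in libraries holding pancreas transcripts. The remaining genes with the smallest p in a direction were Creb3l3, Selenos, Eif2b3 and Eif2ak4, whose log2 values there ran from -0.38 to 0.44.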

How the data were processed

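RNA-seq of liver was available as 8 libraries, 2 in each of 4 groups, in a table of 48432 genes. The values had been made with STAR, Cufflinks and Cuffdiff on mm10, per the submitters' processing notes. Versions, options, annotation and strand use: not given in the sources used here. Per the file headers the deposited table gives estimated counts of fragments (unnormalized, 99.01% within 0.01 of a whole number) and FPKM, which the authors' software scaled by length and depth. Symbols were matched for 48051 genes, and 47 genes with a status other than OK, which held 1.07% of the fragments, were left out. Fragments were rounded and tested with edgeR 4.0.16 (R 4.3.3; TMM, quasi-likelihood, prior count 2) over the 11316 genes that reached 1 FPKM in 2 or more libraries, all 4 group means in 1 model and Benjamini-Hochberg adjustment over all genes at 0.05. Fold changes are fitted on the log2 scale, and ± is the standard error. The 4 residual degrees of freedom and a median standard error of 0.19 between 2 groups limit the precision. DESeq2 1.42.0 and limma 3.58.1 on log2(FPKM + 1), other filters, other size factors, a replicate block and leaving out libraries were alternatives. The edgeR code was tested on simulated data. Replicates had Pearson r of 0.980 to 0.985 on log2(FPKM + 1) and differed beyond counting noise, so none was counted as a copy.

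The 34 genes and the lists were chosen with earlier results of these data known. In full are given the members called in a comparison, otherwise the 3 of smallest p per direction and comparison, and of the further list the 2 of smallest p, with Hspa5 and Creld2 for their promoters. Positions are those of GENCODE vM21 on GRCm38, and promoter windows those of RefSeq on GRCm38.p6.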

Additional observations from a re-analysis of the deposited data

Results flagged for a closer look

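For 2 genes the same contrast had opposite signs in the 2 settings where it was made, with no overlap between the libraries compared, a pattern that 2.81% of the 11316 genes tested showed for PM2.5 and 2.78% for constant light. Derl3 was higher in both LD-PM2.5 libraries than in both LD-FA libraries, with a log2 fold change of 1.54, and lower in both LL-PM2.5 libraries than in both LL-FA libraries, with -0.99. Its gaps were small. The lower LD-PM2.5 library had 2.56 FPKM against 2.37 in the higher LD-FA library. The higher LL-PM2.5 library had 1.94 against 1.98 in the lower LL-FA library. The edgeR interaction was -2.53 ± 0.98 (SE) with an unadjusted p of 0.0351 and an adjusted p of 0.843. The 1.54 was 0.14 with replicate 1 of LD-PM2.5 left out and 2.23 with its replicate 2 left out, the -0.99 was -1.91 to -0.42, and the interaction -3.45 to -1.14, with 1 library left out. Trib3 was lower in constant light than in the light/dark cycle under filtered air, with -0.23 ± 0.44 (SE), and higher under PM2.5, with 0.93 ± 0.44. The first rests on a small gap, since the lower LD-FA library and the higher LL-FA library both had 1.98 FPKM, and it was 0.03 without LD-FA replicate 1. The second was 0.36 to 1.94 with 1 library left out. Its edgeR interaction was 1.16 ± 0.62 (SE) with an adjusted p of 0.843.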

How the results depend on the processing

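No filter on FPKM raised the members called from 0 to 6 (PM2.5 in light/dark), 3 (constant light in filtered air), 5 (PM2.5 in constant light), 4 (constant light under PM2.5), 10 and 6 (the averages over light and air) and 2 (interaction), with 2.81%, 0.873%, 2.07%, 1.55%, 3.02%, 1.26% and 1.04% of 23030 genes called; the cause was not tested. DESeq2 called 1 in each of PM2.5 in light/dark, constant light under PM2.5, and both averages. Without the 3 libraries holding pancreas transcripts, a fit with replicates left only in LL-FA, 1 was called in constant light under PM2.5, and the medians were -0.12 for PM2.5 in constant light, 0.047 for PM2.5 averaged over light and -0.30 for the interaction. With 1 library left out, the medians ran from 0.12 to 0.66 (PM2.5 in light/dark), -0.12 to 0.46 (PM2.5 in constant light), -0.71 to -0.10 (constant light under PM2.5) and -0.45 to 0.26 (interaction), and no member was called.

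Among the genes and comparisons chosen by the naming rule, signs turned as follows. For Derl2, PM2.5 in light/dark was 0.0097 and 0.0099 in limma at pseudocounts of 1 and 0.1 and -0.20 to 0.0069 with a library left out. Constant light under PM2.5 gave Derl2 -0.116 and -0.118 in those fits, -0.033 without the pancreas libraries, and -0.10 to 0.25 with a library left out. Leaving out a library gave Chac1 -0.20 to 1.90 for constant light in filtered air and -1.89 to 0.22 for PM2.5 in constant light, Xbp1 -0.62 to 0.0018 in the latter (all 3 turned without LL-FA replicate 2), and Calr -0.26 to 0.093 for PM2.5 averaged over light. Asns for constant light averaged over air was -0.105 and -0.177 in limma, -0.396 without the pancreas libraries and -1.10 to 0.60 with a library left out. Nupr1 gave -3.08 to 0.47 for PM2.5 in light/dark and -3.29 to 0.27 for constant light in filtered air, turned without LD-FA replicate 1, and 0.269 in the latter without the pancreas libraries. Over all 34 genes, leaving out some 1 library turned the sign of 13 (PM2.5 in light/dark), 21 (PM2.5 in constant light), 10 and 12 (constant light in filtered air and under PM2.5), 13 and 5 (the averages over light and air) and 22 (interaction). Of the other values chosen by the rule, 1096 kept sign and side of the threshold and 23 kept the sign and passed the threshold that the reported value missed.

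No pairing by replicate number was assumed. Deviations of same-numbered libraries had correlations from -0.365 (LD-FA with LL-PM2.5) to 0.325 (LD-FA with LD-PM2.5) between groups, which do not settle whether some share a source. A fit with the replicate number as a block called 0 members in each comparison, with medians of 0.35 for PM2.5 averaged over light and -0.34 for constant light averaged over air.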
